A study of Mus musculus with 4 samples.

Results

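The growth hormone and IGF axis was examined through 10 genes: Igf1, Igfals, Igfbp1, Igfbp2, Igfbp3, Igfbp4, Ghr, Socs2, Stat5b and Igf1r. They were found by gene symbol in the table that the authors deposited for liver RNA-Seq, which lists 7000 genes, and 9 of the 10 were listed. Ghr, which encodes the growth hormone receptor, was not listed. The libraries came from livers of FVB/N mice, males by the study's methods, that received from weaning a Se-deficient diet with sodium selenite added to 0 ppm Se (0 Se) or 0.1 ppm Se (0.1 Se) for 6 weeks. There were 2 mice per diet, mice 1 and 2 on 0 Se and mice 4 and 5 on 0.1 Se, and all of them were wild type. Total liver RNA was depleted of rRNA before sequencing, so the RNA of every cell type of the organ is included.

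The value used for each gene is the authors' mean CPM (counts scaled to 1000000 aligned reads) over all 4 libraries, both diets together. Values of single mice are not part of that table, so no error accompanies the levels below, total counts per library are unknown here, and the order of neighbouring genes could not be tested. The table also holds the authors' own comparison of the diets, which was not used. The effect of dietary Se on these genes is therefore not analysed here. Since a longer mRNA yields more fragments, levels of different genes were compared as CPM per kilobase of the deposited mRNA length.

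Growth hormone from the pituitary binds its receptor on hepatocytes, and the kinase JAK2 then activates STAT5 proteins, which switch on Igf1, Igfals and Socs2. Liver is the main source of circulating IGF-1, which travels bound to IGF binding proteins (IGFBPs), largely in a complex of IGF-1, a binding protein and the acid-labile subunit encoded by Igfals. IGF-1 acts on other tissues through its receptor, the product of Igf1r, a gene known for low expression in hepatocytes.

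The 4 binding protein genes belong to 1 family, and each holds a short cysteine-rich stretch near the end of its coding sequence. Genes outside these 4 were not searched for the stretch. In the protein it is the run Cys-Trp-Cys-Val, a signature of the thyroglobulin type-1 domain that IGFBPs carry. The 30 bases around it are given because their central 12 bases are nearly the same in all 4. They were read 5′ to 3′ from the GENCODE vM1 transcripts on NCBIM37 (the assembly that the authors name mm9), with the 12 bases of the run in capitals.
Igfbp1: gctggactcTGCTGGTGTGTCtacccatgg
Igfbp2: cgcggggagTGCTGGTGTGTGaaccccaat
Igfbp3: cggggcttcTGCTGGTGTGTGgacaagtat
Igfbp4: cgtggcaagTGCTGGTGTGTGgatcggaag

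The run is identical in Igfbp2, Igfbp3 and Igfbp4 and differs from them at 1 base in Igfbp1. This likeness was largely fixed by the search for the residues. Over all 30 bases Igfbp1 differs from Igfbp4 at 13 positions, Igfbp3 at 9 and Igfbp2 at 8. In each gene the run lies within exon 4, the last exon of Igfbp1, Igfbp2 and Igfbp4 and the last but one of the 5 exons of Igfbp3. The windows are at chr11:7101913-7101942 (plus strand) for Igfbp1, chr1:72898596-72898625 (plus) for Igfbp2, chr11:7108458-7108487 (minus) for Igfbp3 and chr11:98912783-98912812 (plus) for Igfbp4. The coding sequences hold 18 cysteine codons in Igfbp1 and Igfbp3, 19 in Igfbp2 and 20 in Igfbp4. Aligned in pairs, the 4 translated proteins were 38.7% to 45.0% identical over the aligned positions. No 50-base word of these mRNAs was found, with up to 2 mismatches, in the coding transcript of another gene, so reads of the family should be told apart by unique alignment.

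Among the 4 binding protein genes, Igfbp4 had the highest level, with a mean of 856 CPM and a level of 414 CPM per kilobase. It lies on chromosome 11 from 98902558 to 98913969, and its product binds IGFs and holds them from their receptor. Per kilobase it ranked 115 among the 7000 listed genes. Igfbp2 (chromosome 1, 72871077 to 72899048), which encodes another major serum IGFBP, had a mean of 195 CPM, or 147 CPM per kilobase. Its level was above those of 95.0% of the listed genes.

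Igfbp3 and Igfbp1 were far lower than these. IGFBP-3 is the chief carrier of IGF-1 in serum and is made in liver mostly by cells other than hepatocytes. Its mRNA had a mean of 34.3 CPM and a level of 14.1 CPM per kilobase, 29.5-fold below Igfbp4. Igfbp1, a hepatocyte gene that insulin represses and fasting induces, had a mean of 16.1 CPM and 10.6 CPM per kilobase, 39.1-fold below Igfbp4. Igfbp3 exceeded Igfbp1 by 1.33-fold per kilobase, a difference with no error to set it against. The genes are neighbours on chromosome 11: Igfbp1 runs from 7097785 to 7102549 on the plus strand and Igfbp3 from 7106089 to 7113926 on the minus strand, with 3539 bases between their 3′ ends. Together the 4 binding protein mRNAs came to 586 CPM per kilobase, 6.26 times the level of Igf1. In CPM they came to 1101, or 1.65 times Igf1, and with the shortest coding transcripts that have both UTRs the order turned, with Igf1 1.61 times their sum.

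Igf1, on chromosome 10 from 87321010 to 87399792, encodes the hormone itself. Its mean was 666 CPM, the second highest of the 9 listed genes, but its deposited mRNA is 7121 bases long and its level per kilobase was 93.5, the third highest. Per kilobase it stood above 93.2% of the listed genes. The annotated transcript of the same length has 5 exons and 402 coding bases, which are 5.65% of it, and a 3′ UTR of 6347 bases, which is 89.1%. The study counted reads aligned to each mRNA, so most of the Igf1 length on which they could fall is 3′ UTR. Where the reads of Igf1 fell was not tested. The annotation holds 9 coding transcripts of Igf1, and the shortest with both UTRs has 651 bases. Were all Igf1 mRNA of that form, the same CPM would be 1023 CPM per kilobase, above Igfbp4, so the place of Igf1 beside the binding proteins depends on the transcript assumed. Which transcripts these livers contained was not tested.

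Igfals, the gene of the acid-labile subunit, is made by hepatocytes and requires growth hormone. It lies on chromosome 17 from 25014600 to 25018955 and had a mean of 115 CPM, or 54.6 CPM per kilobase. This was above 89.5% of the listed genes, and Igf1 was 1.71-fold higher per kilobase. Without division by length Igf1 was 5.78-fold higher, and with the shortest coding transcripts that have both UTRs 18.7-fold. Unlike Igf1, the Igfals mRNA is mostly coding: 1812 of the 2111 bases, or 85.8%, in 2 exons.

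**Figure D1:**
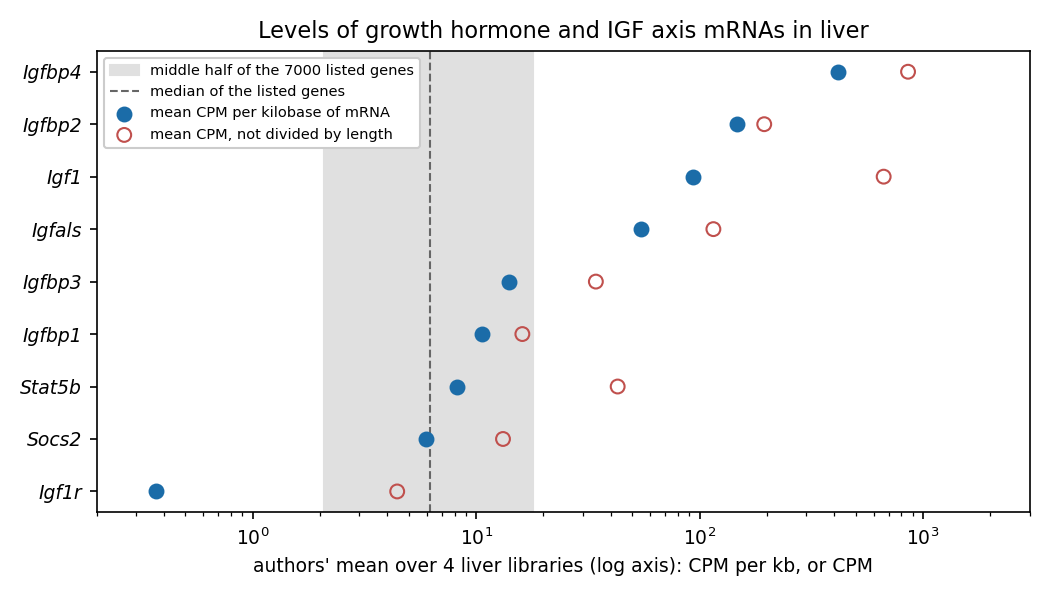
Level of each listed gene as the authors' mean over 4 liver libraries, on a log axis, per kilobase (filled points, CPM per kb) and before division by length (open circles, CPM). The grey band spans the listed genes between their lower and upper quartiles per kilobase, from 2.09 to 18.0, and the dashed line is their median, 6.19. Igfbp4, Igfbp2, Igf1 and Igfals lie to the right of the band, Igf1r lies to its left, and the gap between filled and open points is widest for Igf1r and Igf1, the longest mRNAs.

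The intracellular members were at moderate levels. Stat5b, on chromosome 11 from 100642045 to 100712038, encodes the transcription factor through which growth hormone acts in male liver. It had a mean of 43.0 CPM and a level of 8.18 CPM per kilobase, above 57.4% of the listed genes. Its neighbour Stat5a, 8626 bases away on the opposite strand, encodes a close relative, 93.6% identical over the aligned residues, and stood at 7.05 CPM and 1.81 CPM per kilobase, 4.51-fold below Stat5b. The 2 values are uncertain, because 1237 of the 5164 words of 50 bases in Stat5b, 24.0%, also occur in Stat5a within 2 mismatches, all of them in the coding sequence. Of these words, 608, or 11.8% of all, occur there without a mismatch, and reads from them cannot align uniquely. Whether reads from the others were left out was not tested.

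Socs2, on chromosome 10 from 94847996 to 94879814, encodes a suppressor of cytokine signalling that growth hormone induces and that shuts off signalling by its receptor. It had a mean of 13.2 CPM and a level of 5.93 CPM per kilobase, where the median of the listed genes was 6.19. Its level depends on the length assumed. It was at 3.11 with the longest annotated coding transcript and at 13.9 with the shortest that has both UTRs. With shared words taken out of the length it was at 7.96. These lengths were changed for the genes of the axis only, and the other listed genes kept their deposited lengths. The side of the median that Socs2 would take with all lengths changed was therefore not tested. Its value is open to the same doubt as that of Stat5b: 553 of its 2173 words, 25.4%, occur within 2 mismatches in other transcripts annotated as coding, 551 of them in Gm9847, which RefSeq (GRCm38.p6) classes as a pseudogene. Whether Gm9847 was among the mRNAs that the authors aligned to was not tested. The other 8 genes, Ghr included, shared no such word, although for Igf1r this covers only the annotated part of the mRNA.

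Igf1r was the lowest of the 9 listed genes. Located on chromosome 7 from 75097713 to 75371484, it had a mean of 4.43 CPM and a level of 0.370 CPM per kilobase, above 2.49% of the listed genes. It was 253-fold below Igf1 and 1120-fold below Igfbp4 per kilobase. By comparison, the insulin receptor gene Insr was at 20.0 CPM per kilobase, 54.1-fold above Igf1r, and Igf2r, which encodes the receptor that clears IGF-2, was at 16.2, or 43.9-fold above it. The deposited Igf1r mRNA has 11978 bases, and the longest coding transcript in GENCODE vM1 has 4181, of which 4110 are coding. Divided by this length, the level of Igf1r would be 1.06 CPM per kilobase, which is still the lowest of the 9. Ghr, on chromosome 15 from 3267760 to 3533492, has no value. Absence from the list does not mean absence from liver, since Alb and Ttr, among the most abundant hepatocyte mRNAs, were not listed either.

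**Figure D2:**
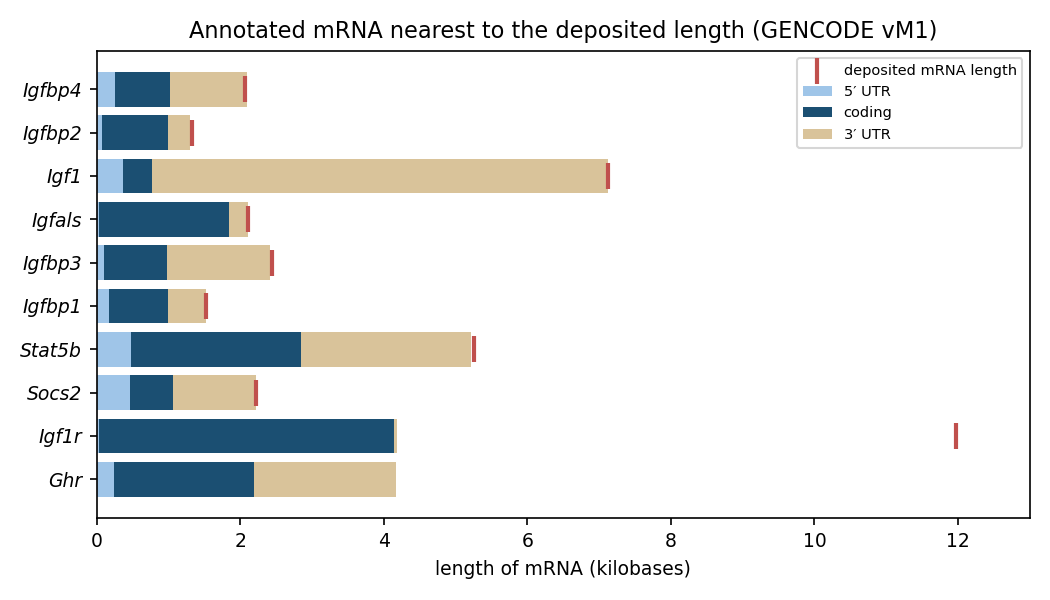
Lengths in kilobases of the 5′ UTR, coding sequence and 3′ UTR of the annotated transcript nearest in length to the deposited mRNA, with red ticks at the deposited lengths (Ghr, not listed, has none and is shown by its longest coding transcript). The 3′ UTR fills 89.1% of Igf1, and the tick of Igf1r, at 11978 bases, lies far beyond its annotated 4181 bases.

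Across the 9 listed genes the levels spanned 1120-fold per kilobase and 193-fold in CPM. The binding proteins held 78.3% of the summed level per kilobase and Igf1 12.5%, while in CPM the shares were 56.7% and 34.3%. With the shortest coding transcripts that have both UTRs the larger share was that of Igf1, 58.9% against 36.6%. The median of the 9 was 14.1 CPM per kilobase against 6.19 for all listed genes, 7 of the 9 lay above that median, and 4 of the 9 were in the top 25% of the list. Together they took 0.194% of the aligned reads. These are descriptions of genes chosen as a liver pathway, in a list that does not hold every gene expressed. By position, 4 of the 10 genes are on chromosome 11 and 2 on chromosome 10. Besides Igfbp1 beside Igfbp3 and Stat5b beside Stat5a, Igfbp2 lies 5457 bases from Igfbp5, on the opposite strand.

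Growth hormone acts on its target genes through STAT5, which binds the palindrome TTCNNNGAA (the same letters on both strands). It was searched in the RefSeq promoter sequences (GRCm38.p6), which run from 250 bases before to 50 after a start site. Of the 10 genes, 9 have an entry there, Socs2 being the exception. Among their 14 entries, 2 of the 3 for Igfals held the palindrome, and the 12 others did not. In all, 8.30% of 32851 promoter entries hold it. The 2 Igfals entries belong to 1 gene. Counted by gene, 1 of the 9 held it, beside 9.55% of all 27025 genes with an entry. The 2 Igfals sites are shown with the palindrome in capitals, from the plus strand, with positions found by matching them to NCBIM37.
Igfals, chr17:25014543-25014571: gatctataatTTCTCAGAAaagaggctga
Igfals, chr17:25015108-25015136: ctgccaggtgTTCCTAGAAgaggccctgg

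The match is one of letters. The palindromes begin 236 and 58 bases before the RefSeq start sites they belong to. In GENCODE vM1 the first begins 47 bases before the start of the gene and the second 518 bases after it, within the span of the gene. Nothing in these data measures binding there.

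Other genes of the pathway were taken from lists written from general knowledge of the pathway. Of 11 genes of growth hormone receptor signalling, 8 were listed, with a median of 5.01 CPM per kilobase. Stat3 (23.9 CPM per kilobase), Ptpn6 (7.17), a phosphatase gene, and Jak2 (7.14), the kinase bound to the receptor, were the highest. Stat3, which IL-6 activates, was 2.92-fold above Stat5b. The lowest was Cish, another STAT5-induced suppressor, at 1.36 CPM per kilobase. With the deposited lengths, Socs2 was 4.38-fold above Cish and 2.26-fold above Socs3 per kilobase. These folds depend on the length assumed for Socs2, which with its longest annotated coding transcript was at 3.11, against 2.63 for Socs3. Of 7 other ligand, binding protein and receptor genes, Insr and Igf2r were listed, and Igf2, Igfbp5, Igfbp6, Igfbp7 and Insrr were not. Of 5 genes for IGFBP proteases and their stanniocalcin inhibitors, only Htra1 was listed, at 1.01 CPM per kilobase.

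Downstream of the receptors, 6 of 10 signalling genes were listed, with a median of 8.47 CPM per kilobase. Pik3r1, a regulatory subunit of PI 3-kinase, was at 20.9, Akt1 at 15.1, Pdpk1 at 10.4 and Grb10, an adaptor that restrains IGF and insulin receptors, lowest at 1.52. These genes serve the insulin receptor as well. Of 14 liver genes known to follow growth hormone, 6 were listed and all lay above the median of the list. Mup3, a major urinary protein gene, was at 9006 CPM per kilobase, Cyp2d9 at 538 and Hsd3b5 at 212, the last 2 of them typical of male liver. Cyp2b9, which is typical of female liver, was at 22.1, and Onecut1, a transcription factor gene, was lowest at 6.67. Whether reads of Mup3 were told apart from those of other major urinary protein genes was not tested, so its value is uncertain.

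**Figure D3:**
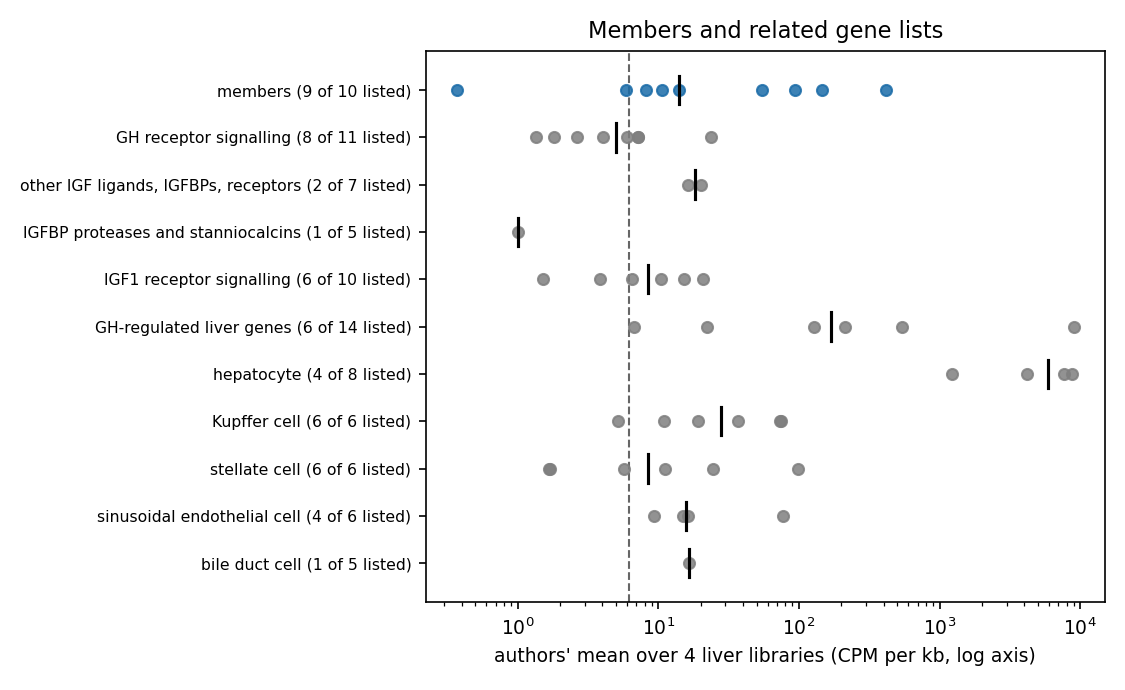
Level per kilobase (authors' mean CPM per kb over 4 liver libraries, log axis) of each listed gene of the axis (blue) and of the related and marker gene lists (grey), with black bars at list medians and a dashed line at the median of all listed genes, 6.19. The members spread from 0.370 to 414, and the receptor signalling lists stay between 1.36 and 23.9. The GH-regulated liver genes also spread widely, from 6.67 to 9006.

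Markers placed the RNA in liver. All 4 listed hepatocyte markers, of 8 looked for, were very high: Trf at 8801, Apoa1 at 7619, Cyp2e1 at 4180 and Serpina1a at 1230 CPM per kilobase. All 6 Kupffer cell markers were listed, from 5.15 for Marco to 74.8 for Clec4f, with Cd5l at 73.7 and Vsig4 at 36.8. All 6 stellate cell markers were listed as well, from 1.67 for Des to 98.3 for Dcn, with Colec11 at 24.7 and Reln at 11.1. Of 6 sinusoidal endothelial markers 4 were listed, from 9.27 for Stab1 to 76.9 for Clec4g, with Stab2 at 16.4 and Kdr at 15.1. Of 5 bile duct markers only Spp1 was, at 16.5. In such bulk RNA a low level cannot be told apart from a high level in few cells. The cells that the Igfbp3 mRNA came from were not tested.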

How the data were processed

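Liver RNA of 4 mice, 2 per diet, was sequenced by the authors with 50-cycle single-end reads. The authors removed rRNA reads, aligned the rest with Bowtie to RefSeq mRNAs (build mm9), each gene being represented by its longest isoform, and kept unique alignments with up to 2 mismatches. The log2 mean CPM and the mRNA length were deposited by the authors in 1 table of the whole series, made with edgeR from genes above a minimum CPM, and are used as deposited. The sources used here do not state the versions of these tools. Together the listed genes took 64.8% of the aligned reads. Why genes such as Alb and Ttr are not listed is not known here, and all places and medians refer to the listed genes only. The table has 0 columns of single mice. Its other columns hold the authors' log2 fold change between the diets, its p-value and its FDR, and were not used. The planned test of the diets needed counts of each mouse and was not made.

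CPM was calculated as 2 to the power of the deposited log2 value and divided by the deposited length in kilobases. A gene's place is the share of listed genes that are lower. Transcript parts, positions and the search for shared words of 50 bases (either strand, longest coding transcript of every other gene) used GENCODE vM1 on NCBIM37, and the code was checked on made-up sequences with known answers. Proteins were translated from its coding sequences and aligned globally with BLOSUM62. Python 3.11.15, numpy 2.4.6, pandas 2.3.3, Biopython 1.88 and matplotlib 3.10.9 were used. All 10 genes are named, and of each other list the 3 highest and the lowest, with further members chosen after their values were seen. The genes and lists were chosen with earlier results of these data known. The alternatives were a length shortened by the read length, annotated lengths, CPM without length, and a minimum mean of 5 CPM. List genes not named are given only in counts and ranges, and 1 further gene was taken out of the lists and is not reported here.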

Additional observations from a re-analysis of the deposited data

How the results depend on the processing

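The count of 4 genes in the top 25% of the list and the median level of the 9 genes moved by less than 1.5 times under each alternative that gave them, which for the median level were the other lengths. Annotated lengths and lengths without shared words were given to the 9 genes only, and the other listed genes kept their deposited lengths. The count under these lengths therefore sets the 9 genes against an unchanged list. Of the single genes, Igf1r stood above 18.4% of the listed genes in CPM without length. Per kilobase it stood above 0% of those with a mean of at least 5 CPM, a set that its own mean of 4.43 CPM leaves it out of. In CPM, Igf1 took place 2, Igfbp2 place 3 and Stat5b place 5. With the longest annotated coding transcripts, Socs2 was at 3.11 and Igf1r at 1.06 CPM per kilobase, and the order of the 9 genes stayed as given. Shortening each length by 50 bases changed no place in the order. After the data were seen, 2 further lengths were tried, and the comparisons of Igf1 with the binding proteins and Igfals were repeated in CPM and with the first of these lengths. With the shortest coding transcript with both UTRs, Igf1 was at 1023, Socs2 at 13.9 and Igf1r at 1.16 CPM per kilobase, and 6 of the 9 genes changed place. With shared words taken out of the length, Stat5b and Igfbp1 exchanged places 6 and 7. Alternatives to the test of the diets, among them the omission of each mouse, were not run. No paired analysis was possible because no column belongs to a single mouse. Without depth or spread between mice, small differences between neighbouring genes cannot be judged.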
